A study of Antheraea pernyi with 6 samples.

Results

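The genes of the circadian clock were followed in the antennae of the Chinese oak silkmoth (Antheraea pernyi), around period (GWHGABGR000160). The members were period, taken by its identifier, and the genes whose deposited description contains timeless, cryptochrome, circadian locomoter output, protein cycle, vrille, par domain protein 1 or doubletime. They came to 8 of 16458 genes: period, 3 matches to timeless, 3 to cryptochrome and 1 to vrille, while the other 4 names matched 0 genes. The deposited table names 4 further clock genes in other words, CLOCK, 2 gene models described as BMAL and double-time. Those 4 were added after their names and values were seen and are kept apart from the members.

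Polyadenylated RNA was sequenced from 3 libraries labelled female and 3 labelled male. Sex is the only difference between groups that the labels state, and they give no strain, age, treatment or time of day at which antennae were taken. A difference between groups in any of these, such as the phase of the clock at collection, cannot be told apart from one of label. Nothing in the labels says that libraries came from separate animals, so p-values here measure only how libraries of a label scatter, which may be technical. Values are FPKM, fragments per kilobase of gene scaled to the reads of the library, as the authors deposited them.

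A circadian clock is a feedback loop in which the transcription factors CLOCK and BMAL (CYCLE in Drosophila) switch on genes whose proteins later repress them. In Drosophila the repressors are PERIOD and TIMELESS, and in moths the vertebrate-type cryptochrome CRY2 is a main repressor, while a second, light-sensitive cryptochrome carries light to the clock. Vrille and PAR-domain factors drive a coupled loop on Clock transcription in Drosophila, and the kinase double-time marks PERIOD for destruction. Antennae of several insects hold clocks of their own that set a daily rhythm in odour responses. In this species period lies on the Z chromosome, with further copies on the W chromosome of females, and antisense period transcripts are known.

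From the step size of low FPKM values, library totals came out at 10851262 to 11180175 reads under the label female and 9392242 to 9606755 under the label male. The labels themselves could not be settled: pheromone-binding protein 1 (GWHGABGR012196) is male-biased in many moths but stood at 92516 ± 2089 FPKM (SD, n = 3) under the label female and 1273 ± 90.6 under the label male. Pheromone binding protein 3 (GWHGABGR012195) stood at 11729 ± 248 and 1082 ± 28. Exchanged labels and a true difference between the sexes cannot be told apart, so each direction here is one between labels. The olfactory coreceptor, a defining gene of antennal neurons (GWHGABGR013501), was present in every library, at 465 ± 5.9 and 176 ± 1.58 FPKM. Pheromone-binding proteins 1 and 3 took 927008 and 191977 reads under the label female against 10969 and 15236 under the label male. Their part in the scale of the libraries was not tested. The median log2 fold change over 11590 tested genes, male-labelled minus female-labelled, was 0.23 as deposited and 0.02 once libraries were rescaled by the median of ratios. Both scales are therefore given for the calls that turn on them.

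Period, cryptochrome and the gene described as cryptochrome-1 were each higher in the male-labelled libraries, by 0.84 to 0.95 on the log2(FPKM + 1) scale, while timeless and vrille were not called on the deposited scale. The test was limma across all 11590 genes with a mean of at least 0.5 FPKM, with Benjamini-Hochberg adjustment and a threshold of 0.05. Of the 8 members 7 could be tested. Of those, 3 passed as higher in the male-labelled libraries and 0 as higher in the female-labelled ones, and at an unadjusted p under 0.05 the counts were 4 and 0. Over all genes 27.8% passed as male-higher and 9.03% as female-higher. After rescaling the members gave 3 and 1, against 14.3% and 17.6% of all genes. With 7 tested members these counts describe the clock genes and set them apart from nothing. The members' median log2 fold change was 0.55 (0.34 rescaled).

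Period, the name-giving repressor of the loop, measured 6.38, 8.49 and 6.41 FPKM in the 3 female-labelled libraries and 12.2, 14.5 and 13.4 in the male-labelled ones. Each male-labelled library stood above each female-labelled one, and the gap between the labels was wider than the spread inside either. The means were 7.09 ± 1.21 and 13.4 ± 1.17 FPKM (SD, n = 3), a log2 fold change of 0.84 (SE 0.15, limma adjusted p = 0.00267). Rescaling reduced it to 0.60 (adjusted p = 0.0143). Over 20 alternative settings the adjusted p ran from 0.00206 to 0.0549. The call was lost in 1 of them, rescaled values without male replicate 2.

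Period was counted by 591 reads under the label female and 958 under the label male. Corrected for library totals this is a ratio of 1.88 with an exact 95% interval of 1.70 to 2.09, which covers counting error only. The interval stays clear of an equal level, so depth did not limit the comparison. Its mean level stood above those of 55.4% of the tested genes, in the middle of the antennal range. The library kit keeps strand but how HTSeq treated it is not given in these sources, so reads of sense and antisense period transcripts, or of near-identical copies on the sex chromosomes, cannot be told apart.

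**Figure D1:**
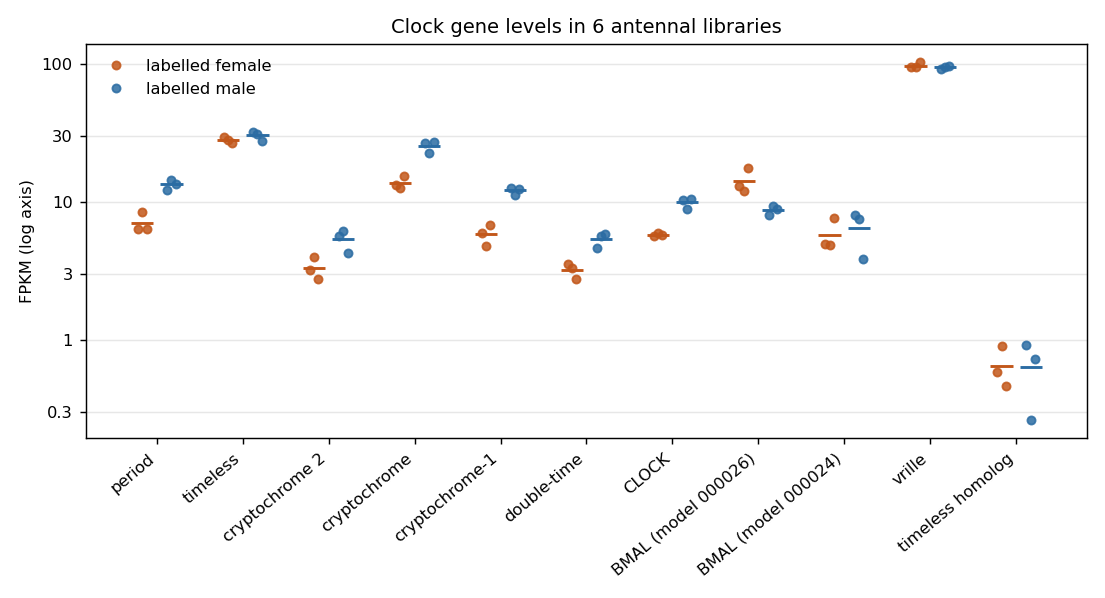
FPKM of each clock gene in each of the 6 libraries, on a log axis, by label. Points are single libraries and short lines the group means. Period lies between 6.38 and 8.49 FPKM under the label female and between 12.2 and 14.5 under the label male, while vrille and timeless stand highest and overlap between labels.

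The cryptochromes, flavoproteins related to photolyases, were higher in the male-labelled libraries in 2 of their 3 genes. Cryptochrome (GWHGABGR003174), described by the species' own sequence, measured 13.2, 12.6 and 15.5 FPKM under the label female and 26.5, 22.6 and 27.1 under the label male. No libraries overlapped, and the log2 fold change was 0.84 (SE 0.12, limma adjusted p = 0.000741; 0.60 rescaled). Its 686 and 1091 reads gave a ratio of 1.85 (exact 95% interval 1.68 to 2.04), and it passed in all 20 alternatives run. The gene described as cryptochrome-1 after a corn borer protein (GWHGABGR004629) measured 5.98, 4.76 and 6.80 FPKM against 12.7, 11.3 and 12.4. Here too the labels did not overlap, with a log2 fold change of 0.95 (SE 0.15, limma adjusted p = 0.00156; 0.72 rescaled), and the call held in all 20 alternatives. Which of these 2 genes is the light-sensitive cryptochrome was not settled from the descriptions.

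Cryptochrome 2 (GWHGABGR014615), by name the repressor-type cryptochrome, measured 3.21, 4.02 and 2.77 FPKM under the label female and 5.67, 6.13 and 4.28 under the label male. The labels did not overlap, yet the difference missed the threshold (log2 fold change 0.55, SE 0.19, limma adjusted p = 0.054; 0.34 and 0.216 rescaled). It was called in 3 of 20 alternatives, over which the adjusted p ran from 0.0421 to 0.451. One of these left out male replicate 3 (0.68, adjusted p = 0.0421). Counting error was not the limit: the 371 and 513 reads gave a ratio of 1.61 (exact 95% interval 1.40 to 1.84). Among the tested members 4 had all male-labelled libraries above all female-labelled ones, where 37.9% of all genes did, and 0 had the reverse, where 12.1% did.

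Timeless (GWHGABGR006970), partner of PERIOD in Drosophila, measured 29.6, 28.2 and 26.6 FPKM under the label female and 32.3, 31.0 and 27.8 under the label male. The labels overlapped, and the log2 fold change of 0.11 (SE 0.09, limma adjusted p = 0.392) turned to -0.15 after rescaling (adjusted p = 0.255). Its 2824 and 2622 reads bounded the ratio between 1.02 and 1.14. Timeless was thus measured more precisely than period by counts, and its difference between labels was small on either scale.

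The 2 genes described as timeless homolog, related to timeout, were scarce. The first (GWHGABGR005973) measured 0.588, 0.903 and 0.465 FPKM against 0.921, 0.263 and 0.725, from 60 and 50 reads over each set of 3 libraries. Its libraries overlapped fully, and the log2 fold change was -0.03 (limma adjusted p = 0.941), turning to 0.08 without female replicate 2 and 0.15 without male replicate 2. The second (GWHGABGR005974) had 1 read in female replicate 1 and 0 in the other 5 libraries, and it was not tested.

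Vrille (GWHGABGR021403), a bZIP repressor of Clock in Drosophila, was the most abundant clock gene, above 89.2% of the tested genes. It measured 93.9, 93.9 and 103 FPKM under the label female and 91.4, 95.2 and 96.8 under the label male. On the deposited scale the labels overlapped (log2 fold change -0.04, SE 0.06, limma adjusted p = 0.661). After rescaling it passed as female-higher (-0.29, SE 0.06, adjusted p = 0.00701). Quantile-normalized values gave -0.12 without a call (limma adjusted p = 0.193). Whether vrille was called therefore depended on the scale, while its sign was negative on each with all 6 libraries. Its share of the library reads was close between labels (read ratio 0.975, exact 95% interval 0.928 to 1.02). Relative to the middle gene it was lower under the label male.

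**Figure D2:**
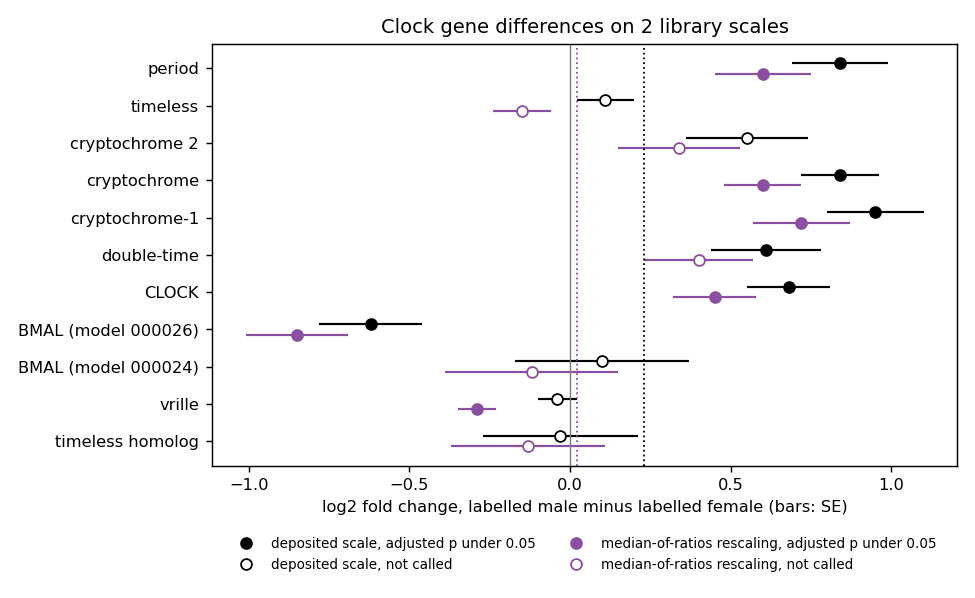
Log2 fold change of each clock gene, male-labelled minus female-labelled, as deposited and rescaled by the median of ratios, with bars for standard errors, filled points where called and dotted lines at the all-gene medians of 0.23 and 0.02. Rescaling moves every gene down: period falls from 0.84 to 0.60 and stays called, and vrille goes from -0.04 to -0.29 and becomes called.

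CLOCK and the longer of 2 models described as BMAL, the activating pair of the loop, differed between labels in opposite directions. CLOCK (GWHGABGR000128) measured 5.69, 5.99 and 5.72 FPKM under the label female and 10.4, 8.84 and 10.5 under the label male. Those libraries did not overlap, with a log2 fold change of 0.68 (SE 0.13, limma adjusted p = 0.00478), and 0.45 after rescaling (adjusted p = 0.0312). CLOCK was called in 13 of 20 alternatives, with adjusted p from 0.00367 to 0.0993. It was lost under quantile normalization, when rescaled with a replicate block, and in rescaled fits without 1 library (female replicate 1, 2 or 3, male replicate 1 or 3).

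The longer model of BMAL (GWHGABGR000026, 1503 bases) measured 13, 11.9 and 17.5 FPKM under the label female and 8, 9.35 and 8.94 under the label male. All female-labelled libraries stood above all male-labelled ones, the reverse of CLOCK and period. The log2 fold change was -0.62 (SE 0.16, limma adjusted p = 0.0161) and -0.85 after rescaling (adjusted p = 0.00385), and the read ratio was 0.621 (exact 95% interval 0.546 to 0.705). It was called in 19 of 20 alternatives, with adjusted p from 0.00317 to 0.0539, and lost without male replicate 1 (-0.56).

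The shorter model of BMAL (GWHGABGR000024, 387 bases) rested on 74 and 71 reads, at 4.92, 4.85 and 7.62 FPKM against 7.98, 7.53 and 3.83. Its libraries overlapped, and its log2 fold change of 0.10 (limma adjusted p = 0.796) turned to -0.12 after rescaling. A further model, described as aryl hydrocarbon receptor nuclear translocator-like protein 1 (GWHGABGR011822), carries the symbol Bmal1 and was kept among the wider genes. It stood at 0.968 ± 0.428 against 1.71 ± 0.231 FPKM from 50 and 76 reads, without overlap. It leaned the way of CLOCK but was not called (0.48, limma adjusted p = 0.131, and 0.34 with 0.305 rescaled). Whether these models are pieces of 1 gene was not tested.

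Double-time (GWHGABGR007524), the casein kinase that phosphorylates PERIOD, measured 3.53, 3.31 and 2.78 FPKM under the label female and 4.67, 5.68 and 5.88 under the label male. The labels did not overlap, and it passed on the deposited scale (log2 fold change 0.61, SE 0.17, limma adjusted p = 0.0236) but not after rescaling (0.40, adjusted p = 0.113). Only 6 of 20 alternatives kept the call, with adjusted p from 0.013 to 0.281. As deposited it was lost without female replicate 2 or 3, without male replicate 2 or 3, under quantile normalization and with a replicate block (adjusted p = 0.0543). In all, 2 of these 4 genes named otherwise passed as male-higher and 1 as female-higher, beside 27.8% and 9.03% of all genes. After rescaling 1 and 1 passed, beside 14.3% and 17.6%. The 4 were added after their values were seen.

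The order of levels differed between labels below the most abundant pair. Under both labels vrille came first and timeless next, each apart from its neighbours. In the female-labelled libraries BMAL (14.2 ± 2.98 FPKM) and cryptochrome (13.8 ± 1.55) followed and overlapped each other. Period, cryptochrome-1, CLOCK and the shorter BMAL model then formed a run in which neighbours overlapped, above cryptochrome 2, double-time and the timeless homolog. In the male-labelled libraries cryptochrome (25.4 ± 2.45) came next, apart from period and cryptochrome-1, which overlapped each other. CLOCK and the longer BMAL model followed and overlapped.

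Ratios inside each library do not depend on how libraries are scaled. Ratios were formed for 7 pairs chosen after the values were seen. The ratio of CLOCK to the longer BMAL model was 0.437, 0.503 and 0.326 under the label female and 1.30, 0.945 and 1.18 under the label male. The labels did not overlap, and the difference was 1.45 on the log2 scale (exact 2-sided permutation p = 0.1, the smallest that 3 against 3 can give, 0.14 adjusted over the 7). This was the largest shift among the 7 ratios, with CLOCK transcripts below those of the longer BMAL model per kilobase under the label female.

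The ratio of period to timeless was 0.215, 0.301 and 0.240 under the label female and 0.377, 0.468 and 0.482 under the label male. It was higher in each male-labelled library, by 0.82 on the log2 scale (exact permutation p = 0.1). Cryptochrome over timeless was 0.491 ± 0.0786 and 0.842 ± 0.125, and cryptochrome 2 over timeless 0.118 ± 0.0211 and 0.176 ± 0.0218. Period over CLOCK was 1.22 ± 0.173 and 1.36 ± 0.249 and overlapped (exact permutation p = 0.5), as did vrille over timeless at 3.46 ± 0.366 and 3.13 ± 0.332 (exact permutation p = 0.4).

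**Figure D3:**
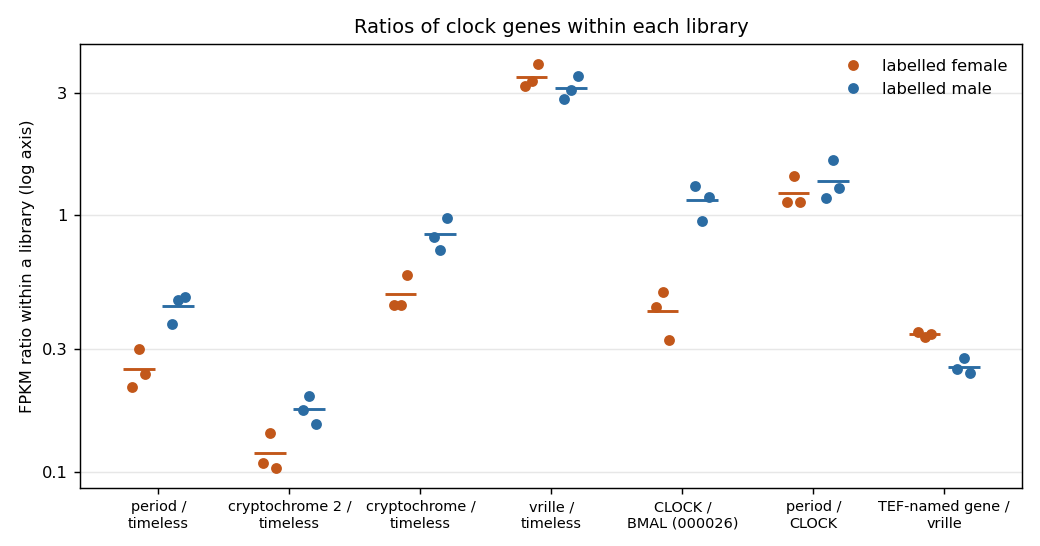
Ratios of FPKM between pairs of clock genes inside each library, on a log axis, by label, with 1 point per library and lines for the means. The ratio of CLOCK to the longer BMAL model lies between 0.326 and 0.503 under the label female and between 0.945 and 1.30 under the label male. Period over timeless is separated in the same direction.

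The genes whose pattern lay nearest to period's were found by the Pearson correlation of log2(FPKM + 1) over the 6 libraries, which share label, depth and abundant genes. Among 5133 described genes of at least 5 FPKM, 997 had r over 0.9. The top 5 were kinase D-interacting substrate (GWHGABGR010264, r = 0.998), the matrin-type zinc finger protein CG9776 (GWHGABGR005214, r = 0.997), ran-binding protein 3 (GWHGABGR008375, r = 0.996), integrator complex subunit 6 (GWHGABGR008898, r = 0.996) and LIM domain only protein 3 (GWHGABGR005566, r = 0.995). Period and each of these 5 were highest in replicate 2 of either label, and the nearest gene was not called between labels (log2 fold change 0.30, limma adjusted p = 0.1). Of the clock genes double-time (0.94), CLOCK (0.91) and cryptochrome 2 (0.90) lay nearest and the longer BMAL model (-0.89) farthest.

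Beyond the core loop, 66 genes of the wider clock were listed by name in 6 groups, and 55 could be tested. On the deposited scale 17 passed as male-higher and 1 as female-higher, and after rescaling 6 and 14, with medians of 0.13 and -0.09. These shares, 32.7% called on the deposited scale and 36.4% rescaled, are near the 36.9% and 31.8% of all genes. The split between directions followed the scaling, as it did for all genes. Without 1 library the male-higher count fell to between 8 and 13, lowest without female replicate 1.

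Of 20 tested kinases, phosphatases and degradation factors of clock proteins, 6 passed as male-higher and 0 as female-higher, beside 27.8% and 9.03% of all genes. After rescaling 3 and 6 did so, beside 14.3% and 17.6%. Cullin-1, scaffold of the ubiquitin ligase that removes PERIOD and TIMELESS in Drosophila, has 3 gene models. The first (GWHGABGR002462) stood at 29.4 ± 4.1 against 52.6 ± 3.51 FPKM, a log2 fold change of 0.82 (limma adjusted p = 0.00046; 0.57 rescaled) and passed in all 20 alternatives. The second (GWHGABGR002460) stood at 5.89 ± 0.308 against 10.1 ± 1.2 (0.68, adjusted p = 0.0062; 0.45 and 0.0432 rescaled). That call held in 13 of 20 alternatives and was lost under quantile normalization (0.36, adjusted p = 0.09), rescaled with a replicate block, and in 5 of 6 rescaled fits without 1 library (adjusted p over all alternatives 0.00481 to 0.135). The most abundant model, GWHGABGR002463, picked after its values were seen, stood at 75.6 ± 8.28 against 81.1 ± 9.85 (0.10, adjusted p = 0.495; -0.16 rescaled). Whether they are pieces of 1 gene was not tested.

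Protein phosphatase 2A stabilises PERIOD in Drosophila. Its regulatory subunit gamma (GWHGABGR017569) stood at 2.83 ± 0.689 against 4.99 ± 0.477 FPKM (0.66, limma adjusted p = 0.0293; 0.45 and 0.115 rescaled), a call kept in 6 of 20 alternatives. As deposited it was lost without female replicate 1, male replicate 1 or male replicate 3, under quantile normalization, with no filter (adjusted p = 0.0584) and with a replicate block (adjusted p = 0.0517). Its scaffold subunit (GWHGABGR018742), the most abundant gene of the group, stood at 273 ± 5.36 against 264 ± 4.4 and was called only when rescaled or quantile-normalized (-0.05, adjusted p = 0.333; -0.31 and 0.000447 rescaled). A pair of kinases was picked after their values were seen. Casein kinase II alpha (GWHGABGR007377), which phosphorylates PERIOD in Drosophila, stood at 103 ± 4.12 against 141 ± 5.17 (0.45, adjusted p = 0.000285; 0.20 and 0.0203 rescaled). Glycogen synthase kinase-3 beta (GWHGABGR008055), the shaggy kinase of TIMELESS in Drosophila, stood at 71.8 ± 2.51 against 69.8 ± 4.57 (-0.04, adjusted p = 0.666; -0.30 and 0.0122 rescaled).

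Among 10 tested transcription factors around the loop, 4 passed as male-higher and 1 as female-higher, beside 27.8% and 9.03% of all genes, and 1 and 3 when rescaled, beside 14.3% and 17.6%. The single female-higher gene was thyrotroph embryonic factor (GWHGABGR000035), of the PAR-domain family to which Pdp1, an activator of Clock in Drosophila, belongs. It measured 33, 31.5 and 35.3 FPKM under the label female and 22.9, 26.3 and 23.4 under the label male, without overlap. The log2 fold change was -0.44 (SE 0.09, limma adjusted p = 0.00537) and -0.69 after rescaling, and the call held in all 20 alternatives. Its ratio to vrille, the opposing factor of the Drosophila loop, was 0.343 ± 0.00779 and 0.257 ± 0.0179, separated by label (exact permutation p = 0.1). Another model of the group, described as hepatic leukemia factor (GWHGABGR000030), stood at 9.81 ± 0.948 against 10.3 ± 0.386 FPKM. It overlapped and was not called (0.07, limma adjusted p = 0.701, and -0.17 with 0.341 rescaled). The symbol of GWHGABGR000035 is also HLF, and whether the 2 models are pieces of 1 gene was not tested.

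Clockwork orange (GWHGABGR008580), a repressor of E-box genes, stood at 26 ± 0.735 against 36.5 ± 3.03 FPKM (0.47, limma adjusted p = 0.00327; 0.22 and 0.091 rescaled). The cyclic AMP response element-binding protein B (GWHGABGR010219) stood at 71.4 ± 3.11 against 99.2 ± 1.80 (0.47, adjusted p = 0.000296; 0.21 and 0.0219 rescaled). Nuclear receptor HR3 (GWHGABGR002404) stood at 3.82 ± 0.557 against 6.23 ± 1.48 (0.57, adjusted p = 0.0487; 0.36 and 0.204 rescaled), a call that was lost in every fit leaving out 1 library except that without male replicate 3. The ecdysone-inducible receptor E75 (GWHGABGR010158), the most abundant of the group, stood at 135 ± 4.01 against 133 ± 0.358. It was called only when rescaled (-0.02, limma adjusted p = 0.788, and -0.28 with 0.00262 rescaled). Another E75 model (GWHGABGR010163), named after its values were seen, stood at 29.6 ± 3.58 against 38.0 ± 2.0 without overlap. It passed as male-higher only on the deposited scale (0.35, limma adjusted p = 0.0248, and 0.10 with 0.482 rescaled).

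**Figure D4:**
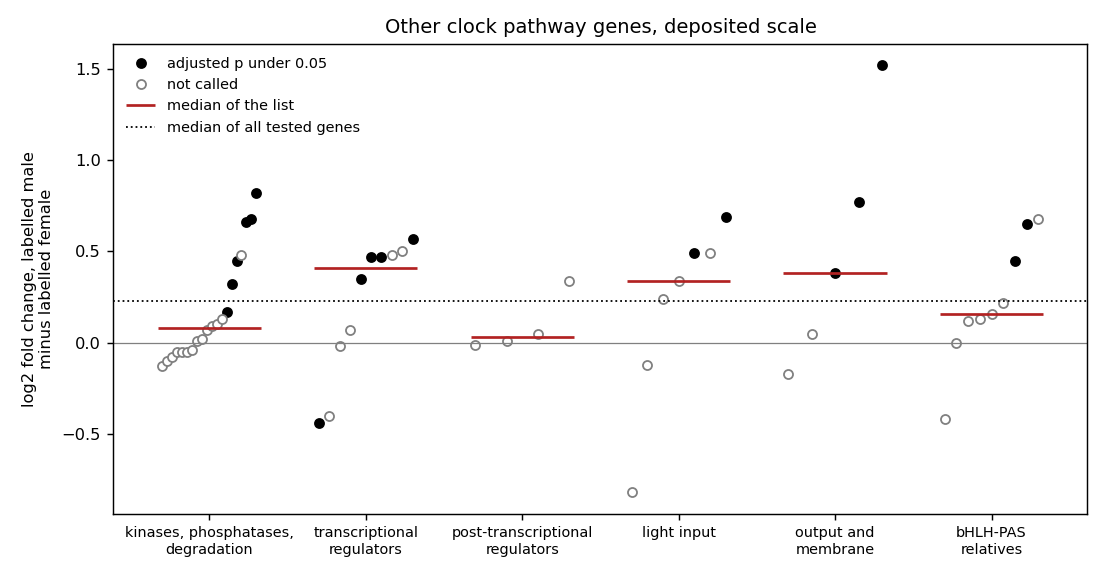
Log2 fold changes of the wider clock genes by functional group, male-labelled minus female-labelled, as deposited, with 1 point per tested gene (filled where called), red lines for group medians and a dotted line at the all-gene median of 0.23. Called genes lie mostly above that line, up to 1.52 for a gene of the output group, and 1 called gene, in the transcriptional group, lies below 0.

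Of 5 tested output genes 3 passed as male-higher and 0 as female-higher, beside 27.8% and 9.03% of all genes, and 2 and 1 when rescaled, beside 14.3% and 17.6%. Arylalkylamine N-acetyltransferase, which acetylates dopamine, octopamine and serotonin and makes the melatonin precursor, was the most abundant (GWHGABGR007969). It measured 86.4, 84.4 and 84.3 FPKM under the label female and 146, 145 and 147 under the label male. With so little spread the log2 fold change of 0.77 had an SE of 0.05 (limma adjusted p = 3.93e-06; 0.51 and 4.67e-05 rescaled). A neighbouring identifier, dopamine N-acetyltransferase-like (GWHGABGR007968), stood at 4.81 ± 2.33 against 14.8 ± 2.33 FPKM (1.52, adjusted p = 0.0045; 1.29 rescaled), and both were called in all 20 alternatives. The potassium channel slowpoke (GWHGABGR010716), which shapes neuronal firing, stood at 13.9 ± 0.349 against 18.4 ± 1.64 (0.38, limma adjusted p = 0.0219, and 0.14 with 0.37 rescaled). That call was also lost without female replicate 1 or 3 or male replicate 1 or 2. Another slowpoke model (GWHGABGR010714) rested on 61 and 58 reads and overlapped, at 5.13 ± 0.16 against 5.68 ± 2.55. It was not called (0.05, limma adjusted p = 0.901, and -0.17 with 0.68 rescaled).

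Of 7 tested light-input genes 2 passed as male-higher and 0 as female-higher, beside 27.8% and 9.03% of all genes. When rescaled 0 and 1 passed, beside 14.3% and 17.6%. The gene called when rescaled was a model named opsin-3 (GWHGABGR013691). It stood at 3.33 ± 1.43 against 1.38 ± 0.311 FPKM (-0.82, limma adjusted p = 0.0526, and -0.98 with 0.0292 rescaled). The visual pigment-like receptor peropsin (GWHGABGR003998) measured 9.39, 11.1 and 9.65 FPKM against 16.6, 11.1 and 16.5 (0.49, limma adjusted p = 0.0477), and an arrestin-like gene (GWHGABGR014792) stood at 0.261 ± 0.169 against 1.04 ± 0.276 (0.69, adjusted p = 0.0367). Both calls were lost after rescaling and in 5 of 6 fits without 1 library; they held without male replicate 2 and without female replicate 2, respectively. Beta-arrestin-1 (GWHGABGR007240), which also serves receptors outside the eye, reached 4.83 FPKM. The genes named as ultraviolet opsins, anceropsin, arrestin-1, arrestin homologs and the transient receptor potential channel, 7 in all and grouped after their values were seen, reached at most 0.948 FPKM in any library, while a model named opsin-3 (GWHGABGR013692) reached 8.62 FPKM.

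After rescaling 0 of 9 tested relatives of CLOCK in the bHLH-PAS family passed either way, beside 14.3% and 17.6% of all genes. As deposited 2 passed as male-higher and 0 as female-higher, beside 27.8% and 9.03%. They were the aryl hydrocarbon receptor (GWHGABGR017178, 1.65 ± 0.362 against 3.14 ± 0.482 FPKM, 0.65, limma adjusted p = 0.0346; 0.47 and 0.117 rescaled) and a hypoxia-inducible factor 1-alpha-like model (GWHGABGR017632, 20.6 ± 2.22 against 28.4 ± 2.65, 0.45, adjusted p = 0.0146; 0.20 and 0.216 rescaled). The first call held only without male replicate 1 among the 6 fits leaving out 1 library, and the second was lost without male replicate 3. The most abundant hypoxia-inducible factor model (GWHGABGR017630) stood at 47.6 ± 0.952 against 52.0 ± 2.40 (0.13, adjusted p = 0.17).

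Of 4 tested post-transcriptional regulators 0 passed by limma on the deposited scale, and 0 at an unadjusted p under 0.05, while 3 passed as female-higher after rescaling. Over all genes 27.8% passed as male-higher and 9.03% as female-higher on the deposited scale, and 14.3% and 17.6% rescaled. Lark, an RNA-binding protein that raises period translation in mammals (GWHGABGR009112), stood at 162 ± 8.29 against 163 ± 3.94 FPKM (0.01, adjusted p = 0.934; -0.25 and 0.00575 rescaled).

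Markers of several cell types also differed between labels. Fewer cells of a type cannot be told apart from less RNA per cell in such bulk samples. Markers of sensillum support cells summed to 127208.9 to 131868.5 FPKM under the label female and 40753.6 to 43525.6 under the label male (13 of 13 tested, 8 male-higher and 2 female-higher; 5 and 3 rescaled). The 9 tested general neuron markers summed to 271 to 297 and 362 to 392 (4 and 1; 2 and 2 rescaled), the 3 glial markers to 17.2 to 19.8 and 29.7 to 32.3 (1 and 0), and the 1 olfactory neuron marker to 458 to 469.6 and 174 to 177. Hemocyte markers summed to 100.5 to 107 and 178 to 189 (13 of 21 tested, 9 and 0; 6 and 0 rescaled), and photoreceptor markers to 52.9 to 59.3 and 79.3 to 90.7 (10 of 18 tested, 5 and 0; 2 and 1 rescaled). Muscle markers summed to 239 to 255 and 273 to 279 (16 of 28 tested, 3 and 1; 1 and 2 rescaled), and fat body markers to 1151.3 to 1207.4 and 1218.5 to 1268.2 (30 of 49 tested, 15 and 2; 10 and 2 rescaled). No group was at 0. Beside these counts, 27.8% of all genes passed as male-higher and 9.03% as female-higher, and 14.3% and 17.6% rescaled. The sums of general neuron, glial, hemocyte and photoreceptor markers were higher under the label male on both scales, as period was. Synaptobrevin-1-like (GWHGABGR005688), the largest neuron gene, stood at 155 to 173 FPKM under the label female and 235 to 272 under the label male. ELAV-like protein 1 (GWHGABGR013959) overlapped, at 75 to 87.4 and 72.1 to 84.9. Reversed polarity (GWHGABGR014642) made up most of the glial sum, at 14.9 to 16.5 and 26.3 to 28.5. The largest hemocyte gene was integrin beta subunit 1 (GWHGABGR010059), at 44.9 to 48.9 and 75.1 to 82.6. Hemocytin (GWHGABGR010485) stood at 9.42 to 9.62 and 15.2 to 17.2. Prophenoloxidase-2 (GWHGABGR016003) was low and overlapped, at 0.648 to 2.41 and 1.26 to 2.03. Chaoptin models and peropsin made up most of the photoreceptor sum. These sums were not remade without those genes. The 7 visual genes grouped above reached at most 0.948 FPKM in any library. The photoreceptor sum thus does not by itself show photoreceptors of the eye to be present. The sums of muscle and fat body markers turned when rescaled. They went to 258 to 278 and 248 to 252 for muscle and 1256 to 1299.1 and 1113.8 to 1139.4 for fat body. The olfactory neuron marker was lower under the label male. The support cell sum was lower too, but without pheromone-binding proteins 1 and 3 the remaining 11 genes summed to 25583.6 to 26090.6 under the label female and 38524.6 to 41143.4 under the label male. Their part in the differences of the clock genes was not tested.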

How the data were processed

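Per the submitters' processing notes, Trimmomatic, HISAT2, HTSeq and R 3.2.0 were used (genome build and counting mode: not given in the sources used here). The authors deposited 1 table of FPKM values for 16458 genes. Libraries were made from Trizol-extracted RNA with a stranded mRNA kit, per the labels. No column belonged to another series.

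Values were tested as log2(FPKM + 1) with limma 3.58.1 in R 4.3.3, with a mean-variance trend, labelled sex as the only term, genes of a mean of at least 0.5 FPKM, and Benjamini-Hochberg adjustment over 11590 genes. Fold changes understate those of low genes because of the pseudocount. The fit was also run on simulated counts without a shift in scale between labels. That run says nothing on calls that turn on the scale. FPKM steps gave whole reads for 16458 of 16458 genes, which summed to 99.61% to 99.64% of the totals; 87.9% of the lengths recovered for 11340 genes are multiples of 3, so they are mostly coding lengths. Read ratios have exact binomial intervals. Rescaling used median-of-ratios size factors over 11493 genes (means 0.924 female-labelled, 1.106 male-labelled).

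The members and lists were chosen with earlier results of these data known. In each list were named up to 3 called genes each way by size and the most abundant gene; 21 wrong name matches were removed. Alternatives were another pseudocount (0.1), filter (none, mean of 2), normalization, variance model, a replicate block and leaving out each library. Rescaling combined with the block or with a library left out was added after the data were seen.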

Additional observations from a re-analysis of the deposited data

How the results depend on the processing

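Period kept its direction in every alternative run: its log2 fold change was 0.60 rescaled, 0.53 quantile-normalized (adjusted p = 0.0257), 0.91 with the smaller pseudocount, and 0.77 to 0.96 (0.54 to 0.72 rescaled) without 1 library. Replicate numbers did not pair the libraries (correlations of deviations 0.005, 0.006 and -0.004), and with the replicate block period stood at 0.84 (adjusted p = 0.00494). Core members passing as male-higher numbered 3 to 4 without 1 library (2 to 3 rescaled), and female-higher members went from 0 to 1, vrille, under rescaling, under rescaling with the block, and without 1 library when rescaled. Wider genes passing as male-higher went from 17 to 6 rescaled, 5 quantile-normalized, 10 with the block, 8 to 13 without 1 library, 4 rescaled with the block, and 3 to 5 rescaled without 1 library. Those passing as female-higher went from 1 to 14 rescaled, 7 quantile-normalized, 2 with a mean of at least 2 FPKM, 2 with the block, 1 to 2 without 1 library, 13 rescaled with the block, and 10 to 13 rescaled without 1 library.

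Over all genes 3227 male-higher calls became 1655 rescaled, 1636 quantile-normalized, 1502 rescaled with the block, 2566 to 2735 without 1 library and 1309 to 1459 rescaled without 1 library. The 1047 female-higher calls became 2036, 1688, 1891, 878 to 951 and 1754 to 1837.

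Of the 55 tested wider genes 14 turned sign on rescaling, 3 of them called then. For the named genes whose sign turned, values follow, and the cause was not tested. Timeless went to -0.15 rescaled, -0.11 quantile-normalized, -0.15 rescaled with the block and -0.19 to -0.08 rescaled without 1 library. The shorter BMAL model went to -0.12, -0.22, -0.12, -0.06 to 0.39 without 1 library and -0.27 to 0.17 rescaled without 1 library. The timeless homolog GWHGABGR005973 ranged from -0.15 to 0.15 without 1 library (-0.24 to 0.04 rescaled), and vrille from -0.06 to 0.01 (-0.32 at the lowest rescaled). Lark went to -0.25 rescaled and with the block added, -0.07 quantile-normalized, -0.02 to 0.05 without 1 library and -0.27 to -0.21 rescaled. The hypoxia-inducible factor GWHGABGR017630 went to -0.13 rescaled and with the block added, -0.06 quantile-normalized, 0.09 to 0.16 without 1 library and -0.17 to -0.09 rescaled. Cullin-1 GWHGABGR002463 went to -0.16 rescaled and with the block added, 0.00 to 0.18 without 1 library and -0.25 to -0.07 rescaled. Without 1 library E75 GWHGABGR010158 ranged from -0.03 to 0.01 (-0.30 to -0.25 rescaled) and glycogen synthase kinase-3 beta from -0.07 to 0.01 (-0.33 to -0.24 rescaled). The timeless homologs and the shorter BMAL model rest on few reads. No alternative separates the labels from the pheromone-binding proteins that take more reads of the female-labelled libraries.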

Other observations

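The authors' gene ontology terms on rhythm cover 115 genes outside the members and the 4 clock genes named otherwise, of which 101 could be tested. On the deposited scale 31 passed limma as male-higher and 5 as female-higher, and after rescaling 15 and 22, with medians of 0.25 and 0.06. In all 35.6% were called as deposited and 36.6% rescaled, near the 36.9% and 31.8% of all genes. The set shares genes with the wider lists, such as clockwork orange, lark and slowpoke. It also holds genes described as circadian clock-controlled protein, which are not among the members. The examples that follow were chosen after their values were seen. An octopamine receptor (GWHGABGR018839), which mediates arousal signals in insects, stood at 93.8 ± 4.16 FPKM (SD, n = 3) under the label female and 165 ± 5.20 under the label male (log2 fold change 0.81, limma adjusted p = 7.4e-06; 0.55 rescaled). The catalytic subunit of protein kinase A (GWHGABGR003114) stood at 38.1 ± 1.02 against 57.7 ± 2.39 (0.59, adjusted p = 0.000216; 0.33 rescaled). O-GlcNAc transferase (GWHGABGR004843), which modifies PERIOD in Drosophila, stood at 20.1 ± 1.87 against 30.5 ± 0.514 (0.58, adjusted p = 0.00154; 0.33 rescaled). The RAC kinase (GWHGABGR008171), known as Akt, went the other way at 112 ± 2.50 against 91.5 ± 3.51 (-0.29, adjusted p = 0.00315; -0.55 rescaled).

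Of 24 genes in the authors' circadian pathway annotation, all tested, 8 passed as male-higher and 3 as female-higher on the deposited scale, and 5 and 6 after rescaling. Over all genes the shares were 27.8% and 9.03%, and 14.3% and 17.6% rescaled. Outside the same clock genes the counts were 3 and 2 of 15 as deposited and 1 and 4 rescaled.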
